A study of Homo sapiens with 2 samples.

Results

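Cadherins and epithelial-mesenchymal regulators were examined in oral squamous cell carcinoma (OSCC) cells carrying a DLEU1 vector. The 10 genes were CDH1, CDH2, CDH3, EPCAM, VIM, SNAI1, SNAI2, TWIST1, ZEB1 and ZEB2, taken by gene name from the 43317 gene names with a non-control probe on the array. They had 17 probes. Ca9-22, an OSCC cell line, was infected with a lentivirus carrying full-length DLEU1, a long noncoding RNA (lncRNA), in pLenti6/V5-DEST, or with the empty vector as control. Cells of both groups were selected with Blasticidin for 2 weeks and were otherwise cultured alike. The groups are called DLEU1 cells and control cells. Total RNA of each was measured on 1 Agilent 1-colour array (Cy3), and both arrays sat on 1 slide and were scanned together. With 1 array per group there was no replicate, so no test was made, no p-value is given, and differences describe these 2 cultures only.

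Epithelial cells are held together by classical cadherins, membrane proteins that bind the same cadherin on the next cell and are tied to actin by catenins. In epithelial-mesenchymal transition (EMT), transcription factors of the SNAI, TWIST and ZEB families repress CDH1 and other epithelial genes, while vimentin and often CDH2 are gained. OSCC cells are known to occupy states between these ends, and P-cadherin, the product of CDH3, is a cadherin of the basal layer of stratified epithelium.

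CDH1 and CDH3 were higher with the DLEU1 vector, by 2.05- and 2.27-fold, whereas VIM, ZEB1, SNAI1, EPCAM and SNAI2 were lower, by between 1.58- and 1.96-fold. Of the 9 members detected on both arrays, 3 were higher and 6 were lower, with a median log2 difference of -0.66. A member was called at 2-fold or more, and 2 members were called higher and 0 lower. Over all 20246 gene names detected on both arrays, 9.18% were called higher and 9.78% lower, and the median difference was -0.07. The threshold fell close to several members: CDH1 was 0.039 past it on the log2 scale and VIM 0.029 short of it. In RNA of a whole culture, fewer cells expressing a gene and less RNA per cell cannot be told apart.

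All levels are log2 processed signals relative to the 75th percentile of the same array, and a difference is the level in DLEU1 cells minus that in control cells. Replicated spots were available for 282 detected probes, and a spot's log2 difference had an SD of 0.080. By signal it was 0.31 under 100 units (5 probes), 0.098 between 100 and 1000 and 0.058 over 1000. Different probes of 1 gene varied more, with a pooled SD of 0.47 and a median SD of 0.23 over 4674 genes. Neither value includes the variation between cultures. Of the 58201 probes, 47.6% were well above background in control cells and 48.1% in DLEU1 cells. DLEU1 itself was at 3.17 in control cells and 5.91 in DLEU1 cells at its brightest probe, a 6.67-fold difference, and its other 2 probes differed by 0.54 and 0.85. Scaling decides where 0 lies. With the arrays set equal on their spike-in controls, the median of all genes moved from -0.07 to -0.53, and with median scaling to -0.18. Of the genes called, 48.4% were higher in the setting used here, 39.0% with median scaling and 15.9% with spike-in scaling. Relative to the median of all genes, the median of the members was -0.59, which a constant shift cannot change, and it was -0.52 with quantile normalization, -0.53 with loess and -0.51 with the median of the 100 nearest spots taken off.

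**Figure D1:**
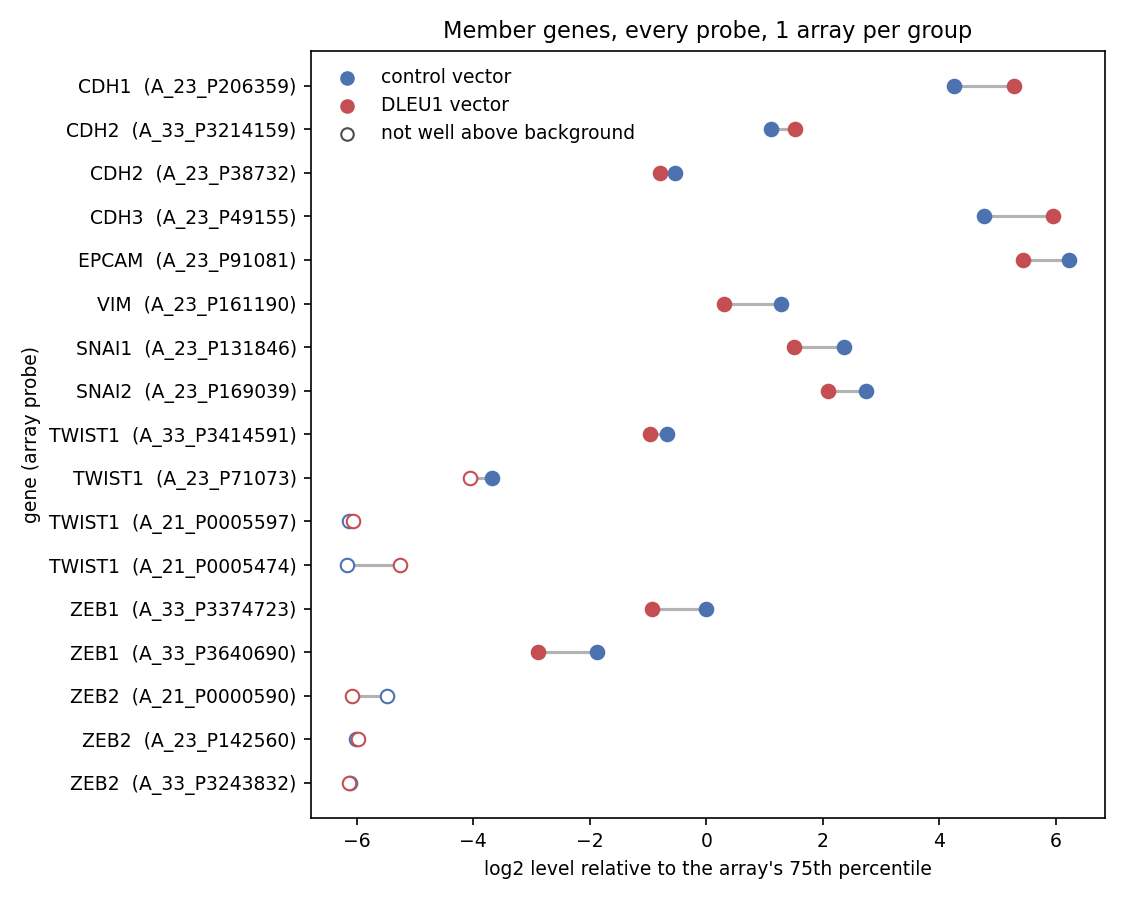
Log2 level of each of the 17 member probes in control cells (blue) and DLEU1 cells (red), relative to the 75th percentile of the array; open circles were not well above background. CDH1 and CDH3 lie to the right with the DLEU1 vector and EPCAM, VIM, SNAI1, SNAI2 and both ZEB1 probes to the left, while levels of different probes cannot be compared with each other.

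The sequences of 3 probes are shown because they carry the readings of VIM and TWIST1, which were lower, and the lack of a reading for ZEB2. Each is 60 bases long, given 5′ to 3′ as deposited, with no base singled out. The VIM probe A_23_P161190 (chr10:17278347-17279256, hg19, plus strand) covers 910 bases of genome with its 60 letters, so it reads RNA with the bases between spliced out. The TWIST1 probe A_33_P3414591 (chr7:19156462-19156521, hg19, minus strand) and the ZEB2 probe A_33_P3243832 (chr2:145182363-145182422, hg19, minus strand) each hold 2 forward reading frames with no stop codon.
VIM A_23_P161190: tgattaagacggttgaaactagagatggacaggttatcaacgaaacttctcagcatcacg
TWIST1 A_33_P3414591: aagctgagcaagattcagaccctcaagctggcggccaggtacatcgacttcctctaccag
ZEB2 A_33_P3243832: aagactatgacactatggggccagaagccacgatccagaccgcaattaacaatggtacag

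CDH1 encodes E-cadherin, the main cadherin of epithelial adherens junctions. Its probe A_23_P206359 (transcript NM_004360, chromosome 16, 68869214 to 68869273, hg19) was printed in 10 spots on each array, which makes CDH1 the member with the most measurements. The level was 4.25 ± 0.071 in control cells (SD over 10 spots) and 5.29 ± 0.11 in DLEU1 cells (SD over 9 spots), a difference of 1.04. Signals ran from 4216.5 to 4919.1 in control cells and from 7754.4 to 9906.9 in the 9 spots used in DLEU1 cells, so the spots of the arrays did not overlap. The remaining spot read 121.9 in DLEU1 cells and 4455.2 in control cells. It lay in a patch of 188 spots, chosen for its low signals, on the DLEU1 vector array where 58.3% of the lit spots were at least 4-fold lower than on the control vector array, against 3.19% of the lit spots elsewhere, and the software had flagged it as an outlier. No other member spot lay in this patch. With flagged spots kept the difference was 0.42, and without the patch it was 1.03. Among all gene names detected on both arrays, 8.70% had a larger difference than CDH1.

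**Figure D2:**
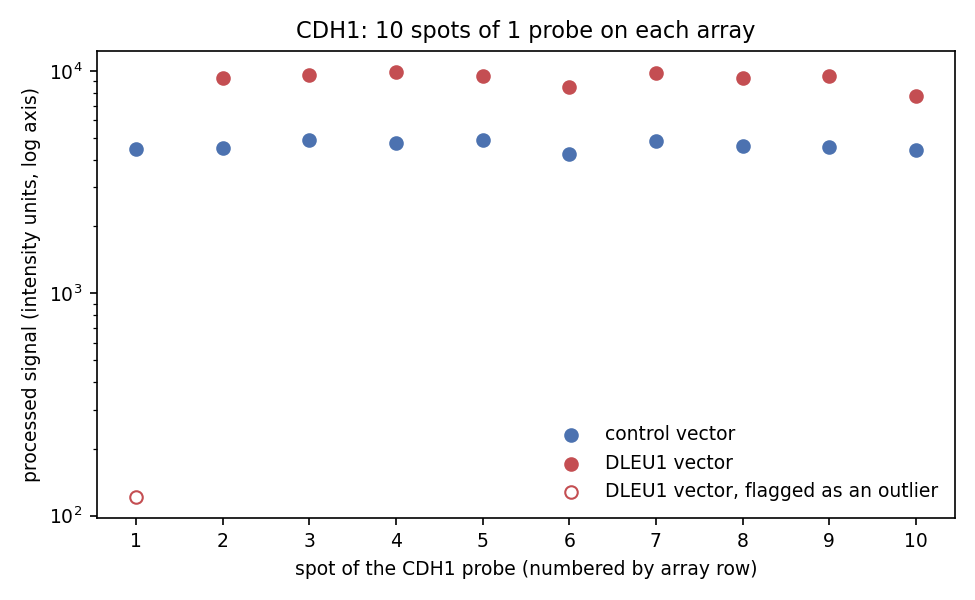
Processed signal (log axis) of the 10 spots of the CDH1 probe in control cells (blue) and DLEU1 cells (red), numbered by array row. In 9 spots the DLEU1 vector array read between 7754.4 and 9906.9, above every control vector spot, and the open circle is the flagged spot at 121.9.

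CDH3 had the largest increase among the members in the setting used here. Its single probe A_23_P49155 (NM_001793, chromosome 16, 68732812 to 68732871, hg19) was at 4.77 in control cells and 5.95 in DLEU1 cells, a difference of 1.18, and 6.95% of gene names had a larger one. CDH3 and CDH1 are neighbours on chromosome 16, and 136 kb lay between their probes. CDH2 encodes N-cadherin, the cadherin of neurons and mesenchymal cells. Its 2 probes of transcript NM_001792 (chromosome 18, minus strand, 25530936 to 25530995 and 25532081 to 25532140, hg19) went opposite ways. A_33_P3214159 was at 1.11 in control cells and 1.53 in DLEU1 cells, a difference of 0.41. A_23_P38732 was at -0.53 and -0.80, a difference of -0.27. In size both values are smaller than the pooled SD of 0.47 between probes of 1 gene and larger than the median SD of 0.23. The mean of the probes was 0.07, and spike-in scaling gave -0.05, so no direction was seen for CDH2.

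EPCAM, an epithelial cell adhesion molecule found in simple epithelia and in carcinomas, was lower although CDH1 and CDH3 were higher. Its probe A_23_P91081 (NM_002354, chromosome 2, 47613894 to 47613953, hg19) was at 6.22 in control cells and 5.44 in DLEU1 cells, a difference of -0.78 or 1.72-fold. Of all gene names, 14.9% had a lower difference. VIM encodes vimentin, the intermediate filament of mesenchymal cells. It was at 1.28 in control cells and 0.31 in DLEU1 cells, a difference of -0.97 or 1.96-fold, and 10.3% of gene names were lower still.

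The zinc finger repressors SNAI1 (Snail) and SNAI2 (Slug), which bind E-box sequences and silence CDH1, had 1 probe each. SNAI1 (A_23_P131846, NM_005985, chromosome 20, 48605170 to 48605229, hg19) read 1248.1 signal units in control cells and 667.6 in DLEU1 cells, a log2 difference of -0.87. SNAI2 was at a log2 level of 2.75 and 2.09, a difference of -0.66. Both lay on the lower side of the genes, with 12.7% of gene names below SNAI1 and 19.1% below SNAI2.

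ZEB1, a zinc finger and homeodomain repressor of CDH1 and of polarity genes, was the only member with several probes detected on both arrays that went the same way. Its probe A_33_P3374723 (NM_001128128, chromosome 10, 31818063 to 31818122, hg19) was at -0.01 in control cells and -0.93 in DLEU1 cells, a difference of -0.92. A_33_P3640690, 1802 bases before it on chromosome 10, was at -1.87 and -2.89, a difference of -1.02 or 2.03-fold. The gene value, from the brighter probe, stayed just under 2-fold, while the dimmer probe alone passed it. ZEB2, the close relative of ZEB1, was not well above background on either array at any of its 3 probes, and its levels ran from -6.13 to -5.48. No fold is given for ZEB2.

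TWIST1 encodes a basic helix-loop-helix factor that can induce EMT and had 4 probes. A_33_P3414591 was well above background on both arrays, at -0.67 in control cells and -0.97 in DLEU1 cells, a difference of -0.29. A_23_P71073 of the same transcript, NM_000474, was well above background on the control vector array only, where it was at least 1.29-fold higher. The remaining 2 probes belong to the transcript XR_428085, about 116 kb away, and were not well above background on either array. In size the difference of -0.29 is smaller than the pooled SD of 0.47 between probes of 1 gene and larger than the median SD of 0.23.

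**Figure D3:**
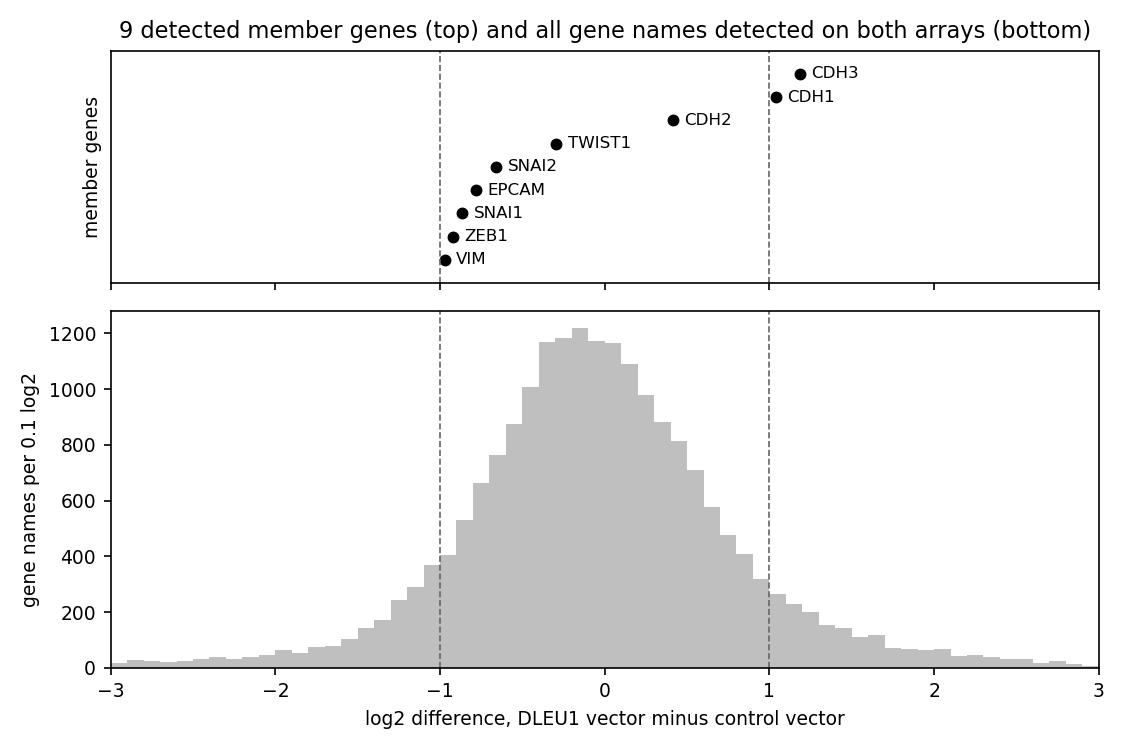
Log2 differences (DLEU1 vector minus control vector) of the 9 members detected on both arrays (top) and number of all gene names per 0.1 log2 (bottom), with dashed lines at 2-fold. CDH3 at 1.18 and CDH1 at 1.04 lie past the upper line, and EPCAM, SNAI1, ZEB1 and VIM lie between -0.78 and -0.97, short of the lower one.

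Across 16 alternative settings that give each gene a value, 8 of the 9 detected members kept their direction. CDH1 ranged from 0.42 to 1.28 and CDH3 from 0.72 to 1.44. VIM ranged from -1.43 to -0.83, ZEB1 from -1.39 to -0.66, SNAI1 from -1.33 to -0.75, EPCAM from -1.25 to -0.52, SNAI2 from -1.12 to -0.54 and TWIST1 from -0.76 to -0.18. CDH2 alone changed sign, with spike-in scaling. What changed was the call: spike-in scaling gave 0 members higher and 5 lower, since it moved every member down by the same amount. Over all gene names, that setting called 4.56% higher and 24.1% lower.

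**Figure D4:**
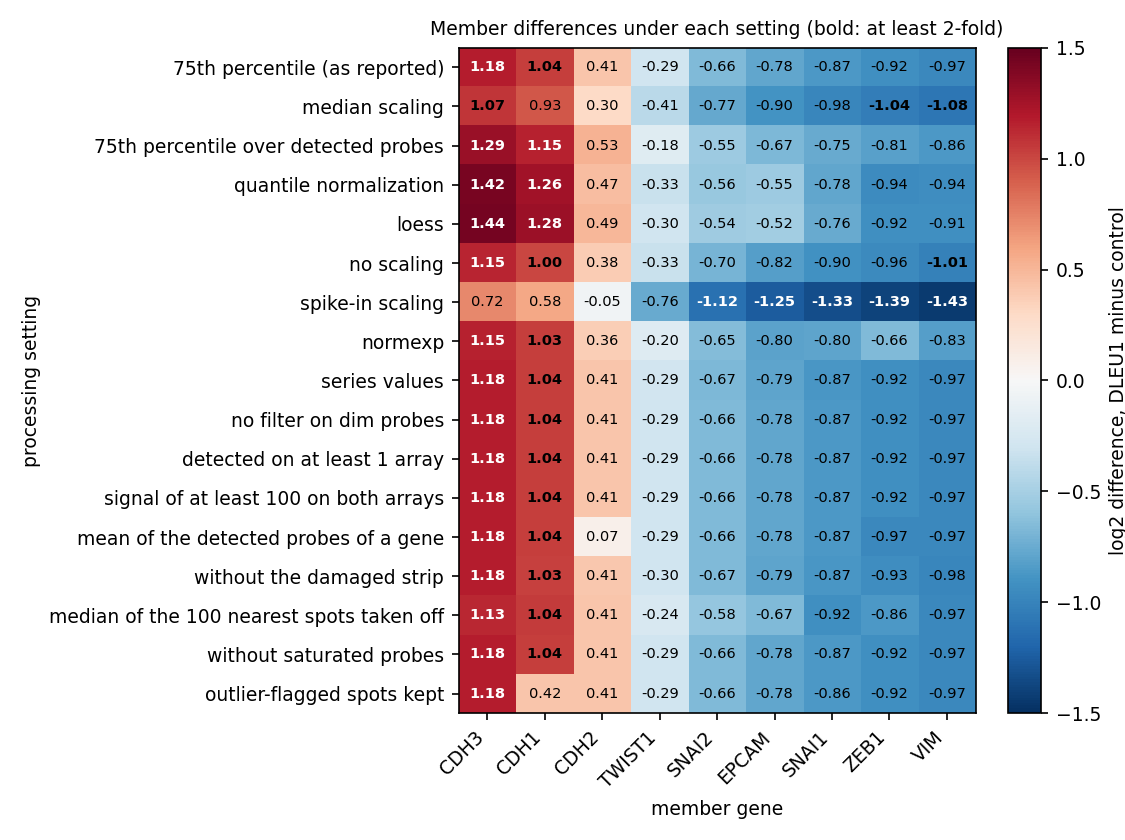
Log2 difference (DLEU1 vector minus control vector) of each detected member (columns) under each processing setting (rows), with bold print at 2-fold or more. Signs are kept down each column except for CDH2 with spike-in scaling at -0.05. With that setting VIM, ZEB1, SNAI1, EPCAM and SNAI2 pass 2-fold while CDH1 and CDH3 do not. Of all gene names, 24.1% were called lower and 4.56% higher with it.

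ZEB1 and the SNAI factors bind the E-box variant CAGGTG, and promoter windows in RefSeq (GRCh38.p14) were searched for it on both strands, as CAGGTG or CACCTG. A window runs from 250 bases before to 50 bases after a start site. Of the members 4 had windows, with 11 windows in all. CDH2, VIM and ZEB2 had 0 matches in theirs, and 2 of 7 ZEB1 windows had a match. Of all 35116 windows, 20.6% held at least 1 match. The ZEB1 window with the most is shown because it holds 3 matches, and because ZEB1 and both SNAI factors were lower together. That number was reached in 0.635% of all windows. This is a share of single windows, whereas the window shown was picked as the highest of 7, so the 2 cannot be compared directly. A link between the matches and the levels was not tested. Capitals mark the matches, which begin 242 and 85 bases before and 34 bases after the start site, counted with the first transcribed base as 1. A match is a description of the letters and not a binding site.
ZEB1 promoter, chr10:31318966-31319265 (GRCh38.p14, plus strand): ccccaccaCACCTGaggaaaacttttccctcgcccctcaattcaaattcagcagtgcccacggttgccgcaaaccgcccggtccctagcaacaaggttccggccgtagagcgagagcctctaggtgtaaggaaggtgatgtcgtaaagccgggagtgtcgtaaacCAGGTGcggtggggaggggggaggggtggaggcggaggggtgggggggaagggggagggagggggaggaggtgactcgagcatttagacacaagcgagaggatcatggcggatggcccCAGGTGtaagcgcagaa

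The genes that work with the members were then described by lists, to be read beside the 9.18% called higher and 9.78% called lower of all gene names. Of 20 other cadherin genes, 9 were detected on both arrays, with 1 at least 2-fold higher, 0 lower and a median difference of 0.37, which was -0.09 with spike-in scaling. CDH16, a cadherin of kidney epithelium, was at -1.08 in control cells and 2.72 in DLEU1 cells, 13.9-fold higher. CDH13, a cadherin with no cytoplasmic tail, was at 1.35 and 2.06 at its brightest probe, a difference of 0.71, whereas its probe of another transcript differed by -1.04. CDH5, the endothelial cadherin, differed by -0.59 and CDH26 by -0.57. CDH23 (named after its values were seen) differed by 0.28 at its brightest probe, and by 1.28 and 2.61 at its dimmer probes. CDH4 was well above background on the control vector array only, where it was at least 1.22-fold higher, and 10 cadherins were detected on neither array.

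Of 20 adherens junction genes, 17 were detected on both arrays, with 4 at least 2-fold higher and 1 lower. Their median difference was -0.04 and, among the scalings, changed sign with 75th percentile scaling over detected probes (0.07), quantile normalization (0.07) and loess (0.09). With spike-in scaling it was -0.51, with 2 genes past 2-fold in each direction. That setting called 4.56% of all gene names higher and 24.1% lower. NECTIN4 (PVRL4 on the array), an epithelial nectin, was at 1.64 in control cells and 4.36 in DLEU1 cells, a difference of 2.72. JUP, or plakoglobin, a catenin shared by adherens junctions and desmosomes, was at 4.86 and 6.45, a difference of 1.58. The other genes past 2-fold, named after their values were seen, were PLEKHA7 at 1.39 and CTNND1, the p120 catenin that holds cadherins at the membrane, at 1.14. PKP4, an armadillo protein, differed by -1.02 and VCL, which links catenin to actin, by -0.60.

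The genes around EPCAM did not share its direction in the setting used here. Of 12 membrane partners and processing genes of EPCAM, 11 were detected on both arrays, with differences from 0.004 to 1.59, of which 1 was past 2-fold and 0 were below 0. Their median was 0.36, and -0.10 with spike-in scaling. SPINT1, an inhibitor of the protease matriptase, was at 2.27 in control cells and 3.86 in DLEU1 cells, a difference of 1.59. CD9, a tetraspanin, was at 4.78 and 5.76, a difference of 0.98. The smallest differences were those of ADAM17, a protease that cleaves membrane proteins, at 0.004 and of PSEN2, a subunit of gamma-secretase, at 0.13.

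A list of 26 genes of the epithelial programme was detected in full. Of these, 7 were at least 2-fold higher and 0 lower, and the median was 0.55 (0.09 with spike-in scaling). GRHL3, a grainyhead factor of the epidermal barrier, was at -2.85 in control cells and 0.82 in DLEU1 cells, 12.7-fold higher. Its signal in control cells was dim, at 33.7 units, and its other probe was detected on neither array. OVOL1, a zinc finger factor of the same epithelia that is known to repress ZEB1, was at 1.18 and 3.30, a difference of 2.12. Its relative OVOL2 went the other way, with a difference of -0.54, and MARVELD3, a tight junction gene, differed by -0.34.

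The mesenchymal list was mixed. Of 28 genes 16 were detected on both arrays, with 6 at least 2-fold higher and 2 lower and a median of 0.23 (-0.24 with spike-in scaling). COL1A1, a chain of type I collagen, was at 0.47 in control cells and 4.47 in DLEU1 cells, 15.9-fold higher, although COL1A2, which encodes its partner chain, was detected on neither array (named after its values were seen). COL5A1, a chain of type V collagen, was at 1.92 and 3.79, a difference of 1.87. AXL, a receptor tyrosine kinase, was at 4.04 and 2.53, 2.84-fold lower, and TNC (tenascin C) differed by -1.48. The TNC probe was dim, at 80.6 units in control cells and 28.2 in DLEU1 cells. LUM was well above background on the DLEU1 vector array only, where it was at least 2.47-fold higher, and 11 genes of the list were detected on neither array.

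Vimentin-related filament genes formed a further list. Of 5 genes, 4 were detected on both arrays, with differences below 0 for all 4, past 2-fold for 2 and a median of -0.99. NES (nestin) differed by -1.06, DES (desmin) by -1.01, PRPH (peripherin) by -0.97 and SYNM (synemin) by -0.68. The second NES probe gave -0.18. DES and PRPH are genes of muscle and neurons, and GFAP (named after its values were seen) was detected on neither array.

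Of 19 other EMT factors, 14 were detected on both arrays, 4 at least 2-fold higher and 3 lower, with a median of 0.37 (-0.09 with spike-in scaling). FOXQ1, a forkhead factor, was at -0.50 in control cells and 2.56 in DLEU1 cells, a difference of 3.06. SOX4 was at -0.76 and 1.89, a difference of 2.66. HMGA2, a chromatin protein, differed by -1.65 at its brightest probe, and its 3 probes ran from -3.37 to -0.04. ETS1 differed by -1.12 at a dim probe, with 83.3 units in control cells and 37.2 in DLEU1 cells. The corepressors and turnover factors of SNAI and ZEB proteins were listed next. All 16 were detected on both arrays, 1 was at least 2-fold higher and 0 lower, with a median of -0.03 that changed sign with 75th percentile scaling over detected probes (0.09), quantile normalization (0.08) and loess (0.10). Spike-in scaling gave a median of -0.49, with 0 genes at least 2-fold higher and 2 lower, beside 4.56% and 24.1% of all gene names. FBXL14, a ubiquitin ligase subunit that targets SNAI1, differed by 1.34, and KDM1A, a histone demethylase recruited by SNAI1, by 0.71. The corepressor CTBP2 differed by -0.79 and the kinase PAK1 by -0.63.

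Antisense transcripts of the members or their relatives were detected for 3 of 4 genes with a probe. VIM-AS1, which lies against VIM, differed by -2.06 at its brightest probe, from -0.28 to -2.34, and by -0.09 at the other. ZEB1-AS1 differed by 0.56 and -0.06 at its 2 probes. SNAI3-AS1 ran from 0.36 to 1.23 over 4 probes.

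**Figure D5:**
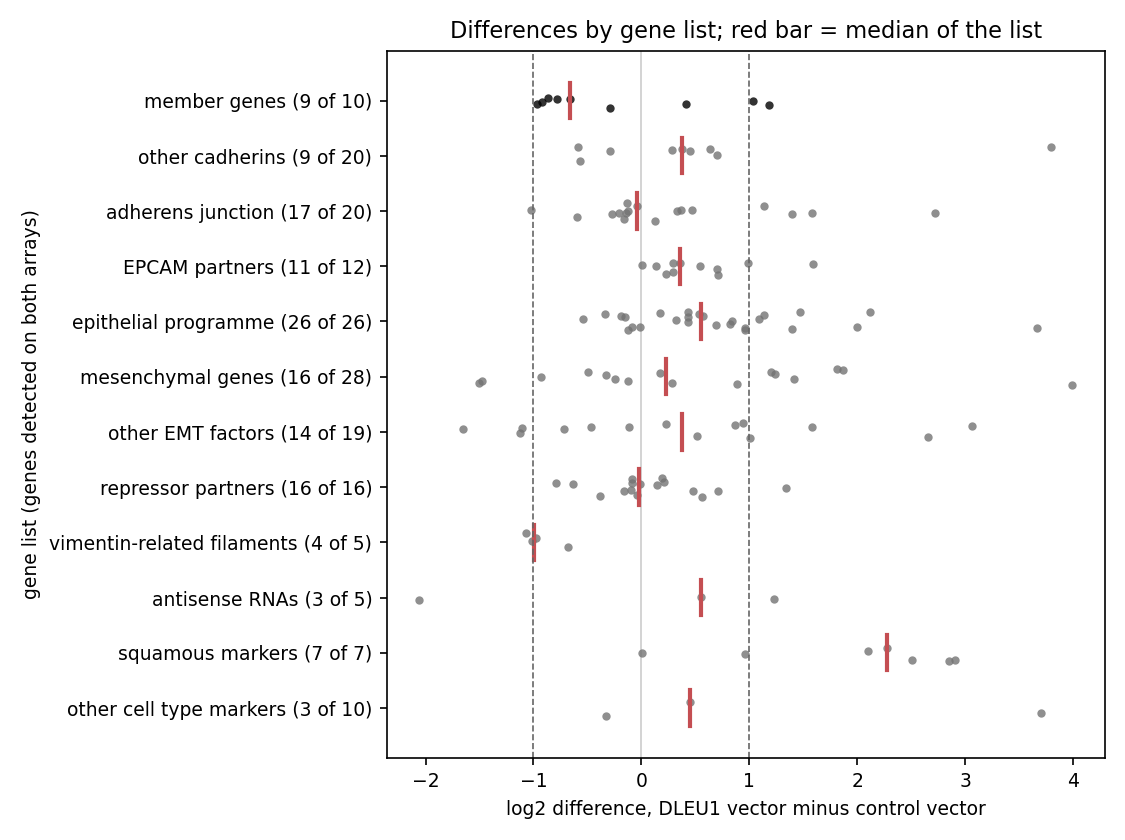
Log2 differences (DLEU1 vector minus control vector) of the genes of each list detected on both arrays (points, with the number detected of the number listed), with the median of each list as a red bar and dashed lines at 2-fold. Most members lie between -1 and 0, and the vimentin-related filaments all lie below 0. The epithelial programme reaches to 3.66, the other cadherins to 3.80 and the mesenchymal genes to 3.99.

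The squamous identity of the cells was checked with 7 markers, which were all well above background on both arrays. Of these, 5 were at least 2-fold higher with the DLEU1 vector. KRT6A, a keratin of activated squamous epithelium, differed by 2.91 and KRT14, a basal keratin, by 2.85. TP63, the master factor of stratified epithelium, differed by 0.96 and SFN by 0.0015. Of 9 fibroblast, endothelial and leukocyte markers with a probe, listed apart from CDH5, 5 were detected on neither array. These were PECAM1, KDR, COL3A1, DCN and CD3E (named after their values were seen). CDH5, an endothelial marker counted with the other cadherins, was detected on both arrays, at -2.14 in control cells and -2.73 in DLEU1 cells. VWF, an endothelial gene, was at -2.33 in control cells and 1.37 in DLEU1 cells at its brightest probe and differed by -0.07 at another. PTPRC differed by 0.45 and PDGFRB by -0.33. LUM, a fibroblast marker, was well above background in DLEU1 cells only. The 5 squamous markers past 2-fold differed in the same direction as CDH1 and CDH3, and their part in the members' differences was not tested.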

How the data were processed

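RNA of 2 Ca9-22 cultures was measured, 1 array each. Per the file headers, the deposited intensity of each spot was made with Agilent Feature Extraction 10.7.3.1, which subtracted local background and removed spatial trend. The authors' series table repeats this intensity to within 0.497%. Probe positions and sequences were those deposited (hg19).

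Control spots and spots flagged as outliers (84 and 103) were left out. The log2 processed signal of a probe's spots was averaged and the 75th percentile over non-control probes subtracted (7.92 for the control vector, 7.88 for the DLEU1 vector). Detected means that most spots were marked well above background. A gene took the value of the brightest of its probes that both arrays detected. Where 1 array alone detected a probe, the dim array was set to its lowest detected signal, or to the probe's signal where that was higher, and the fold is written as at least. Such a fold leaves out the spread between spots, which was largest for signals under 100 units. Python 3.11.15, numpy 2.4.6, pandas 2.3.3, scipy 1.17.1, R 4.3.3 and limma 3.58.1 (normexp with offset 50, quantile, loess) were used. The scaling and calling steps were tested on simulated data. The planted differences were larger than that of any member, so the test does not bear on calls close to 2-fold.

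The members and the 12 other lists, with the rule for naming their genes, were chosen with earlier results of these data known. Named were all members, DLEU1, the 2 highest and 2 lowest genes of each list and those detected on 1 array only, and others are marked as named after their values were seen. The patch of low signals was found from the data, and its cause was not tested. It is the box around the largest connected area where at least 30% of nearby lit spots were at least 4-fold lower. A further gene is not reported here.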

Additional observations from a re-analysis of the deposited data

How the results depend on the processing

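The number of members at least 2-fold higher (2) became 1 with median scaling and 1 with outlier-flagged spots kept (an alternative chosen after seeing the data). With spike-in scaling it became 0, and 0 at a 3-fold threshold. Of all gene names, 7.73%, 9.18%, 4.56% and 3.82% were called higher in these settings, in the same order. The number at least 2-fold lower (0) became 2 with median scaling, 1 with no scaling, 5 with spike-in scaling and 5 at a 1.5-fold threshold. Of all gene names, 12.1%, 10.5%, 24.1% and 22.0% were called lower in these settings, in the same order. The median difference of the detected members (-0.66) was -0.77 with median scaling, -0.55 with 75th percentile scaling over detected probes, -0.55 with quantile normalization, -0.52 with loess and -1.12 with spike-in scaling. It moved by less than the spot SD of 0.080 in the other alternatives, and these counts differed by 1.5 times or less. Spike-in scaling rests on 8 spike-in probes and shifts every gene by one amount. No member past 2-fold changed sign in any alternative. Over all alternatives, 109 of 160 values of single members and DLEU1 moved by less than the spot SD, 339 of 394 list counts stayed within 1.5 times, and 132 of 197 list medians moved by less than the spot SD. No paired analysis was possible because each group had 1 array, and for the same reason no array could be left out. TWIST1 and both ZEB1 probes were limited by low signal, and precision throughout by having 1 array per group. With normexp the ZEB1 difference moved from -0.92 to -0.66.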

Other observations

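The surroundings of CDH3 and CDH1 on chromosome 16 were described after their values were seen. In a window reaching 250 kb beyond both probes there were 17 probes, of which 10 were detected on both arrays. Besides the CDH3 and CDH1 probes themselves, 8 of these remain, 6 higher and 2 lower. These are probes, 2 of them of ZFP90, whereas the 45.8% of all gene names that were higher counts 1 probe per gene. Some were dim, such as lnc-ZFP90-2 at -3.49 in control cells. On the side of CDH3, the 2 ZFP90 probes differed by 0.29 and 0.61. Between the cadherins, the lncRNA probe of lnc-CDH3-1 (68756468 to 68761063, hg19, plus strand) differed by 0.81. A probe of lnc-CHTF8-2 on the minus strand (68849480 to 68849539), 19.7 kb before the CDH1 probe, was well above background on the DLEU1 vector array only, where it was at least 3.23-fold higher. Another lnc-CHTF8-2 probe, nearer to the CDH1 probe (68857180 to 68857239), was not well above background on either array. Past CDH1, lnc-CDH1-1 differed by -1.28 and TANGO6, a gene next to CDH1 on the same strand, by -1.54. The lnc-CDH1-1 probe was dim, at -2.33 in control cells and -3.61 in DLEU1 cells.

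MIR205HG, the host transcript of miR-205, a microRNA known to target ZEB1 and ZEB2, was also looked at after its values were seen. Its 3 probes on chromosome 1 were detected on both arrays and differed by 0.67, 0.84 and 1.12. These arrays measured the host transcript and not the mature microRNA.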
